A study of Mus musculus with 6 samples.

Results

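The genes of mouse chromosome 10 were compared between S49 Neo and MR 4-25, a pair of mouse T lymphoma lines, along their order on the chromosome. A gene was taken when at least 1 gene probe (not a control spot) placed on chromosome 10 by the array's annotation, build mm7, was flagged well above background on all 6 arrays; Gja1 and Ifng were left out. The genes were thus selected on their detection flags and position. This held for 711 of the 1288 chromosome 10 genes with a probe, out of 15332 genes of all chromosomes that met the same filter. The brightest probe, by its mean over the 6 arrays, stood for each gene. Signals are given as log2 of the background-corrected Cy3 signal minus log2 of the array's 75th percentile, so that 0 is the level that 75% of an array's gene spots do not exceed. A difference is MR 4-25 minus Neo on that log2 scale, and a difference of 1 is a 2-fold difference in signal. The difference between the lines did not enter the choice, but the chromosome was taken up with earlier results of these data known, so its common level is described without a test.

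S49 is an established line that grows in suspension. Neo is the parental line, and MR 4-25 is named for recovery from mannitol, an osmolyte that draws water out of cells. Both lines were grown in the same RPMI-1640 medium with heat-inactivated serum and received no treatment, so the comparison is between standing lines and not between exposures, and MR 4-25 is a single line. Each line had 3 samples, numbered 1 to 3, and nothing in the labels says that they came from separate cultures, so p-values measure only the scatter among these arrays, part or all of which may be technical. Neo 1, Neo 2, MR 4-25 1 and MR 4-25 2 were on the first slide and Neo 3 and MR 4-25 3 on the second. MR 4-25 3 was the dimmest array: its 75th percentile was 520.7 intensity units against 844.4 to 987.6 on the other arrays, and 61.53% of its gene spots were well above background against 70.13% to 76.46%. Of 14 T cell markers with a probe, 13 were well above background on all 6 arrays, with a summed level of 309 to 347 times the 75th percentile in Neo and 275 to 303.5 in MR 4-25.

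Genes of a chromosome carry no common function, and neighbours on a chromosome usually answer to regulators of their own. A shared shift of many neighbours is measured as a displacement of the whole distribution of differences rather than by single genes. Chromosome 10 of the mouse carries genes of several well-known classes, among them the lymphocyte regulators Prdm1, Myb and Fyn, the cell cycle kinases Cdk1, Cdk2 and Cdk4, the p53 antagonist Mdm2, the stress genes Ddit3 and Ddit4, and the pair of lysozyme genes Lyz1 and Lyz2.

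The probes behind the largest differences, and those of a stretch with several called neighbours, are shown by their first 30 of 60 bases, 5′ to 3′, since each level rests on hybridisation to that sequence. Positions are on mm7. The probe of Prdm1 lay at chr10:44250799-44250858 (minus strand), that of Enpp1 at chr10:24392352-24392411 (minus), that of Slc16a10 at chr10:39823852-39823911 (minus) and that of Akap12 at chr10:5987843-5987902 (minus). The probe of Kcnmb4 lay at chr10:115925806-115925865 (minus), that of Kcnmb4os2 at chr10:115982784-115982843 (plus) and that of Cnot2 at chr10:115993089-115993148 (minus).
Prdm1: taggttaaccaaagcatgacctgacattga
Enpp1: ggggacctgatgttggaatcctattgttgt
Slc16a10: gccaacctaaaccttgagtctgttaaatga
Akap12: gtactcttctaggctggaccgaattcatat
Kcnmb4: ccctcaaagaagtcggttttctttggaaag
Kcnmb4os2: tccaaacaatggtaaaggagacctttagtg
Cnot2: aacagcagcgtttcataggaagagaaaaag

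Chromosome 10 genes lay lower in MR 4-25 as a body. The median difference of the 711 genes was −0.18, with quartiles of −0.48 and 0.22, against 0.04 over all 15332 genes. Below 0 were 440 of the 711 (61.9%), against 47.0% of all genes. The median was −0.17 on the first slide and −0.16 on the second, where the medians of all genes were −0.01 and 0.12. On each array, the median deviation of the chromosome 10 genes from their mean over the 6 arrays, less that of all genes, was 0.109, 0.0988 and 0.111 in Neo and −0.0822, −0.0898 and −0.142 in MR 4-25. Each Neo array was therefore above each MR 4-25 array, by at least 0.181.

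Of the 20 chromosomes compared, chromosome 10 had the lowest median difference. The other 19 ranged from −0.03 to 0.32, and from −0.03 to 0.11 without chromosome 3, which stood at 0.32. Of these 19, 6 (31.6%) also had all MR 4-25 arrays below all Neo arrays, so the order of the arrays alone does not set chromosome 10 apart. The gap between the arrays of the lines was larger: 0.181 for chromosome 10, 0.264 in the other direction for chromosome 3 with 691 genes, and at most 0.0304 for any of the others.

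**Figure D1:**
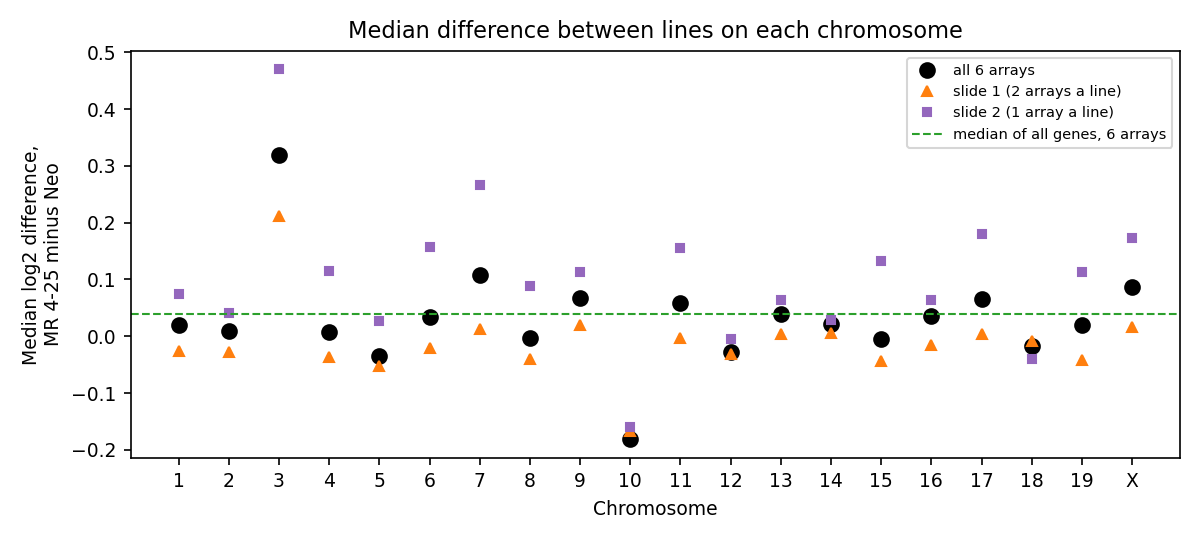
Median log2 difference (MR 4-25 minus Neo) of the genes of each chromosome, over all 6 arrays and on each slide alone. Chromosome 10 is the lowest over all 6 arrays, at −0.18, and chromosome 3 the highest, at 0.32.

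The displacement went with brightness. Over the 263 chromosome 10 genes in the brightest tercile of all genes the median difference was −0.33 (all genes of that tercile −0.04), and 78.7% were below 0. It was −0.20 over the 219 genes of the middle tercile (all genes −0.01) and 0.14 over the 229 of the dimmest (all genes 0.22). On the first slide the dimmest tercile stood at 0.03 (all genes 0.02), the middle at −0.17 (−0.01) and the brightest at −0.32 (−0.06). On the second slide they stood at 0.44 (all genes 0.66), −0.17 (−0.01) and −0.31 (0.01). There the dimmest tercile too was below all genes, so the displacement did not grow stepwise with brightness on that slide. In the brightest tercile the array values relative to all genes were 0.141, 0.133 and 0.149 in Neo and −0.111, −0.123 and −0.201 in MR 4-25, without overlap. Chromosome 3 had medians of 0.29, 0.33 and 0.32 from the dimmest to the brightest tercile. Median differences were −0.18 over the 365 genes with a probe on the plus strand and −0.16 over the 346 on the minus strand.

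The lower level was spread over most of the chromosome. Of 13 bins of 10 Mb, 12 had a median difference below that of all genes, and in 11 of the 13 every MR 4-25 array lay below every Neo array after the level of all genes was taken off. Bins of other chromosomes were not counted, so these counts have no background share beside them. As whole chromosomes, 6 of the other 19 (31.6%) had that order of arrays, and 12 of the 19 had a median below that of all genes. The lowest bin ran from 100 to 110 Mb, at −0.37, but held only 13 genes and stood at −0.01 on the first slide and −0.76 on the second. The bin from 40 to 50 Mb, with 41 genes including Prdm1, was at −0.34, with −0.29 and −0.33 on the slides, and that from 60 to 70 Mb, with 53 genes, was at −0.31, with −0.29 and −0.32. The bin from 20 to 30 Mb, with 34 genes, was the only one above all genes, at 0.09. The measures disagreed there: the array medians relative to all genes were 0.0429, 0.0299 and 0.000385 in Neo and −0.0525, −0.0862 and −0.0645 in MR 4-25, so this bin is among the 11. Between 50 and 60 Mb the median of 46 genes was −0.02, none passed the test, and the arrays of the lines overlapped. The lines also overlapped in the bin from 110 to 120 Mb, at −0.13, where 6 genes rose and 1 fell.

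**Figure D2:**
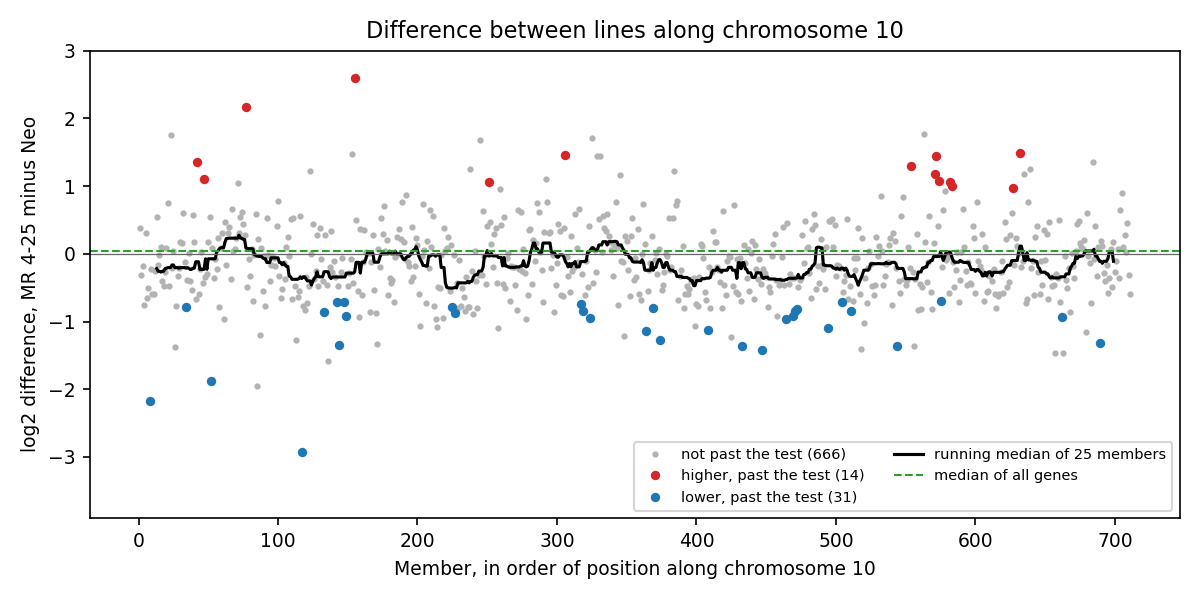
Log2 difference (MR 4-25 minus Neo) of each of the 711 chromosome 10 genes against its order along the chromosome, with the running median of 25 neighbouring genes and the median of all genes as a dashed line. The running median lies below the dashed line in 604 of 687 windows (87.9%). Windows of other chromosomes were not counted.

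**Figure D3:**
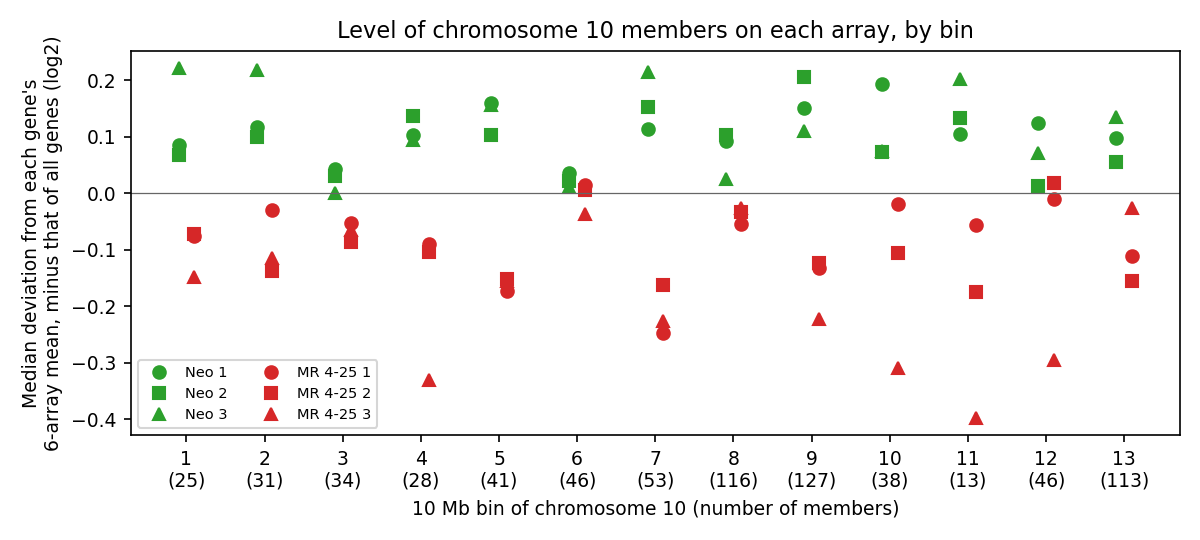
Median deviation on each array of the chromosome 10 genes of each 10 Mb bin, relative to all genes on that array (log2), with Neo and MR 4-25 arrays as separate points. The arrays of the lines are apart, with MR 4-25 lower, in 11 of 13 bins and overlap in bins 6 and 12. Bins of other chromosomes were not counted.

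Windows of 15 neighbouring genes located the extremes. The lowest running median, −0.64, ran from Tspan15 to D10Bwg1070e (61706380 to 62541408), where 14 of the 15 genes were below 0. Of these, Supv3l1, a mitochondrial RNA helicase, and Srgn, the core protein of serglycin in secretory granules, passed the test. The highest, 0.41, ran from Thap2 to Lyz1 (114878409 to 116796142), where 5 genes rose and 1 fell. Of 697 such windows, which overlap, 575 (82.5%) had a median below that of all genes. Windows of other chromosomes were not counted. Neighbouring genes resembled each other little: over the 710 neighbouring pairs, which share genes and arrays, differences correlated at Pearson's r = 0.0968 and Spearman's rho = 0.124, within the range of rho of −0.0161 to 0.144 on the other chromosomes.

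By single genes, 14 of the 711 (1.97%) rose and 31 (4.36%) fell in MR 4-25 at an adjusted p under 0.05 (limma, Benjamini-Hochberg over all 15332 genes). Over all genes the test called 1.88% higher and 1.55% lower. The share that rose was thus near the background and the share that fell above it. Without any overlap between the lines' arrays, 63 genes (8.86%) were higher, against 14.8% of all genes, and 231 (32.5%) lower, against 15.7%. The counts depended on single samples and on the spread assumed: without Neo 1, 1 rose and 1 fell; without Neo 2, Neo 3 or MR 4-25 1, 2 rose and 2 fell; without MR 4-25 2, 4 and 5; and without MR 4-25 3, 11 and 18. With the sample number as a block, 9 rose and 7 fell (0.985%, against 0.75% of all genes under that block). With each array scaled to its median in place of its 75th percentile, 10 rose and 10 fell (1.41% each, against 1.25% and 0.887% of all genes). With normexp background correction 4 rose and 3 fell, and the 0.422% that fell was near the 0.352% of all genes. The share that fell was thus close to that of all genes with normexp and with the block on sample number, and at or below 0.281% in each fit without Neo 1, Neo 2, Neo 3 or MR 4-25 1, where 0.254% to 0.385% of all genes fell. All 45 called genes kept their direction under all 21 alternative settings. These are not 21 separate checks. The deposited values, the blocks on slide and on sample number, and the trend and robust fit leave each difference as it was. Leaving out samples cannot reverse a gene whose arrays do not overlap between the lines.

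The gene that rose most was Prdm1, which encodes Blimp-1, a repressor known for terminal differentiation of lymphocytes. Its log2 signal was −3.85, −4.07 and −4.34 in Neo 1 to 3 and −1.29, −1.75 and −1.43 in MR 4-25 1 to 3. All MR 4-25 samples were far above all Neo samples, by 2.60 ± 0.20 (SE), or 6.06-fold, with an adjusted p of 0.00417. Prdm1 passed the test under all 21 alternatives.

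Enpp1, an ectoenzyme that hydrolyses extracellular nucleotides and makes pyrophosphate, followed. It stood at −3.01, −3.12 and −2.54 in Neo and at −0.79, −1.01 and −0.37 in MR 4-25. The lines were apart by 2.17 ± 0.24 (SE), or 4.50-fold (adjusted p = 0.0128), and Enpp1 passed in 18 of the 21 alternatives. It was the only called gene of the bin from 20 to 30 Mb.

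Cited2, a transcriptional co-regulator that binds CBP and p300, was at 0.91, 1.11 and 0.74 in Neo and 2.30, 2.35 and 2.19 in MR 4-25, a rise of 1.36 ± 0.15 (SE; adjusted p = 0.0123). It was measured by 4 probes, and the other probes gave 1.39, 1.29 and 1.28, each past the test when probes were tested one by one. Kif5a, a kinesin heavy chain best known from neurons, rose by 1.48 ± 0.23 (SE) from −2.21 ± 0.30 to −0.72 ± 0.30 (SD, n = 3 each). Csrp2, a LIM-domain protein, rose by 1.29 ± 0.15 (SE) from a low level of −4.19 ± 0.08 to −2.89 ± 0.19 (SD, n = 3 each).

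The remaining genes that rose outside the stretch around Kcnmb4 were AK132904 (1.46), Nhsl1 (1.11), Cabcoco1 (1.06) and Slc26a10 (0.98, an anion exchanger family member). Nhsl1 had closely spaced samples in Neo, −0.16 ± 0.02, and in MR 4-25, 0.95 ± 0.12 (SD, n = 3 each), but its other probe differed by 0.53 and did not pass. With the sample number as a block, Prdm1, Enpp1, Cited2, Csrp2 and Ptprr kept their call among the 14 that rose, and Akap12, Olig3 and Slc16a10 among the 31 that fell; the other 37 had adjusted p-values of 0.0525 to 0.117.

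**Figure D4:**
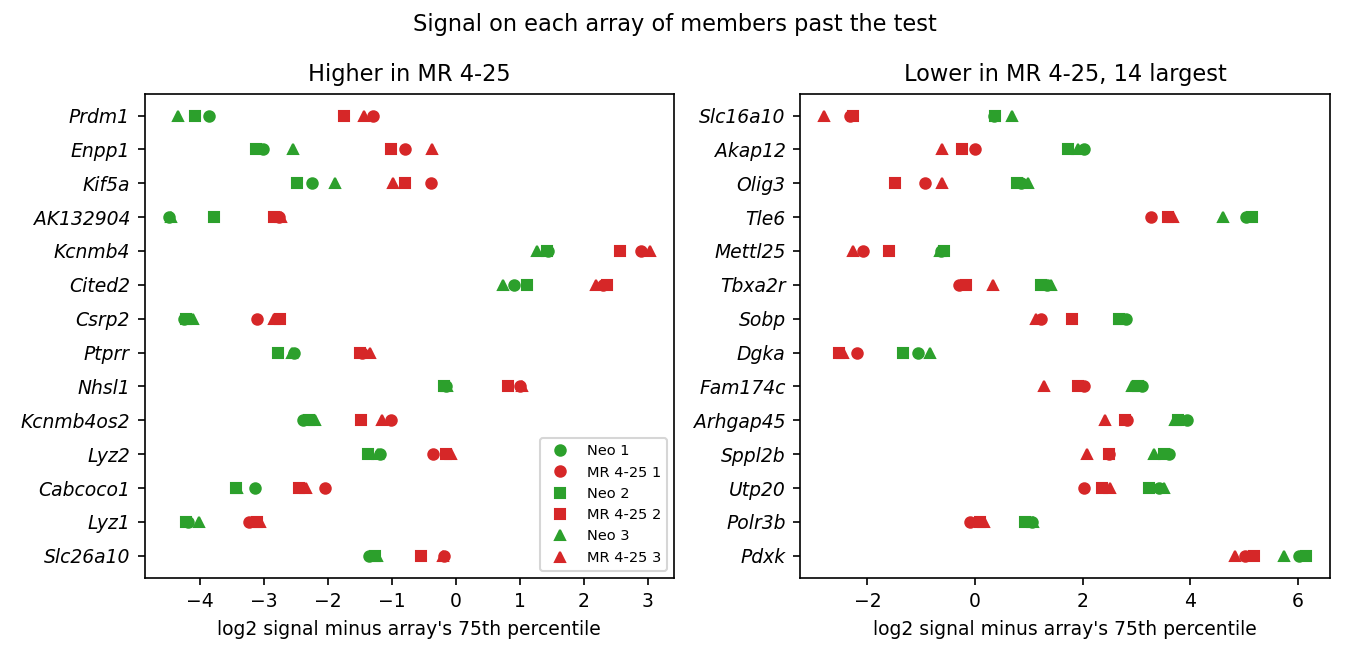
Log2 signal relative to the array's 75th percentile on each of the 6 arrays for the 14 chromosome 10 genes that rose in MR 4-25 and the 14 largest of the 31 that fell. In each gene shown, the 3 MR 4-25 points lie on the same side of the 3 Neo points.

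The gene that fell most was Slc16a10, a transporter of aromatic amino acids also known as TAT1. It stood at 0.35, 0.36 and 0.68 in Neo and at −2.33, −2.26 and −2.80 in MR 4-25. Every MR 4-25 sample lay far below every Neo sample, by 2.93 ± 0.20 (SE), or 7.63-fold (adjusted p = 0.00375), and it passed in 20 of the 21 alternatives.

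Akap12, a scaffold that anchors protein kinases A and C, was at 2.02, 1.72 and 1.91 in Neo and at −0.01, −0.23 and −0.61 in MR 4-25. The samples did not overlap, and the fall was 2.17 ± 0.20 (SE), or 4.49-fold (adjusted p = 0.00708); it also passed in 20 of 21 alternatives. Olig3, a basic helix-loop-helix factor best known from the neural tube, was at 0.85, 0.79 and 0.98 in Neo and at −0.92, −1.48 and −0.61 in MR 4-25, a difference of −1.88 ± 0.25 (SE; adjusted p = 0.0204).

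The further genes that fell had smaller differences. Tbxa2r, the thromboxane A2 receptor, fell by 1.36, from 1.32 ± 0.09 to −0.04 ± 0.33 (SD, n = 3 each). Dgka, a diacylglycerol kinase that dampens signalling from the T cell receptor, fell by 1.32, from −1.07 ± 0.25 to −2.40 ± 0.17. Arhgap45, a RhoGAP of blood cells that is the source of a minor histocompatibility antigen, fell by 1.13, from 3.81 ± 0.12 to 2.68 ± 0.22. Sppl2b, an intramembrane protease, fell by 1.12. Cd24a, a surface glycoprotein of immature lymphocytes, fell by 0.92, from 5.23 ± 0.11 to 4.31 ± 0.14, and the sialomucin Cd164 by 0.86, with its other probes at −0.87 and −0.94, both past the test.

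Utp20, Pwp2 and Ltv1, which act in the making of ribosomal subunits, fell by 1.09, 0.85 and 0.78, and Polr3b, a subunit of RNA polymerase III, fell by 0.97. The other probe of Utp20 stood at 0.42, in the opposite direction. Mterf2, a mitochondrial transcription factor family member, fell by 0.92, Supv3l1 by 0.78 and the mitochondrial phosphate carrier Slc25a3 by 0.71, whose other probe stood at 0.35 and did not pass. Timeless, which acts at the replication fork, fell by 0.93, and Stk11, the kinase LKB1, by 0.81. Pwp2 was tightly measured, at 4.32, 4.26 and 4.21 in Neo and 3.44, 3.43 and 3.38 in MR 4-25.

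The other genes that fell by at least 0.85 were Tle6 (−1.42), a Groucho-family co-repressor, Mettl25 (−1.37), which was the only called gene of the bin from 100 to 110 Mb, Sobp (−1.34), Fam174c (−1.28), Pdxk (−0.95), the kinase that makes pyridoxal phosphate, Srgn (−0.87) and LOC382448 (−0.85). Lta4h, which makes leukotriene B4, followed at −0.84, and the others were Pwp1, BC068026, Bend3, Ostm1 and Cnot2, down to −0.70.

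Several called genes lay together between positions 115782664 and 116796142. Ptprr, a receptor-type tyrosine phosphatase, was next to Kcnmb4, an auxiliary subunit of the large-conductance calcium-activated potassium channel, with their probes 143 kb apart. Ptprr was at −2.52, −2.78 and −2.55 in Neo and −1.47, −1.49 and −1.35 in MR 4-25 and rose by 1.18. Kcnmb4 was at 1.43, 1.43 and 1.27 in Neo and 2.89, 2.56 and 3.03 in MR 4-25 and rose by 1.45 ± 0.17 (SE; adjusted p = 0.0140). Kcnmb4os2, annotated as an opposite-strand transcript of Kcnmb4, rose by 1.07.

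Cnot2, a subunit of the CCR4-NOT deadenylase complex and the next gene after Kcnmb4os2, with probes 10.3 kb apart, fell by 0.70, from 4.65 ± 0.08 to 3.95 ± 0.06 (SD, n = 3 each). Its other probes stood at −0.38 and −0.29 and did not pass. Between Kcnmb4 and Kcnmb4os2, AK006831 differed by 0.41 (adjusted p = 0.443). Further along, Rab3ip (0.64) and Lrrc10 (0.93) were higher in all MR 4-25 samples without passing the test (Lrrc10 passed with slide as a block, adjusted p = 0.0334), while Cct2 (−0.10) and Frs2 (−0.04) overlapped. The stretch thus held genes in both directions.

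**Figure D5:**
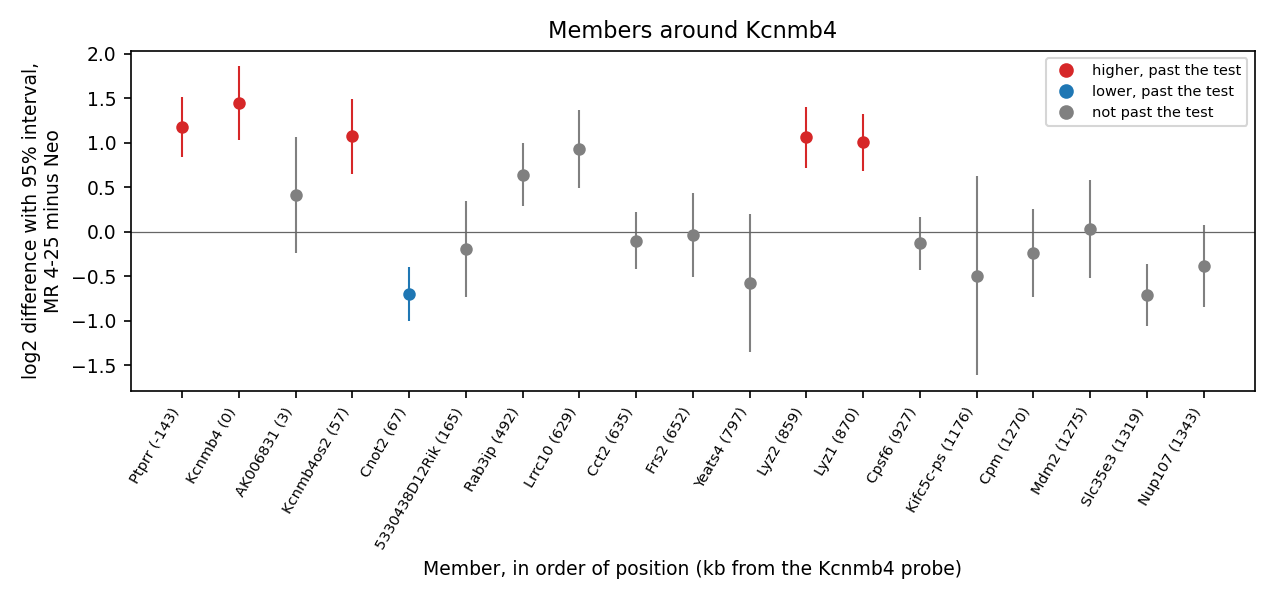
Log2 difference (MR 4-25 minus Neo) with its 95% interval for the chromosome 10 genes from Ptprr to Nup107, ordered by distance in kb from the probe of Kcnmb4. Ptprr, Kcnmb4, Kcnmb4os2, Lyz2 and Lyz1 are above 0 and past the test, Cnot2 is below 0 and past it, and Mdm2 is at 0.03.

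Lyz2 and Lyz1, which encode the lysozymes known from macrophages and from Paneth cells, are a duplicated pair with probes 10.8 kb apart. Lyz2 was at −1.19, −1.37 and −1.22 in Neo and −0.35, −0.16 and −0.08 in MR 4-25, and Lyz1 at −4.19, −4.21 and −4.01 against −3.24, −3.11 and −3.05. The rises of 1.06 ± 0.14 and 1.00 ± 0.13 (SE; adjusted p = 0.0204 for each) were of like size at different levels, and each gene's samples were apart. Cross-hybridisation between the 2 genes was not tested. Their 60-base probes had the same base at 15 positions when set end to end, and at 20 of 49 in the best ungapped alignment. Neither probe was aligned with the other gene's transcript, so these values cannot show whether a probe binds both.

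The starts of both genes are shown because the genes are copies that moved together. These are the 120 bases before each annotated start, from RefSeq on GRCm38.p6, at chr10:117292869-117292988 for Lyz1 and chr10:117282273-117282392 for Lyz2, both on the minus strand. Capitals mark the 9 positions at which they differ, and 111 match.
Lyz1: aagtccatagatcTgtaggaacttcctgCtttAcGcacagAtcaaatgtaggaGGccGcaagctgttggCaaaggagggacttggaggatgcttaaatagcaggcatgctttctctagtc
Lyz2: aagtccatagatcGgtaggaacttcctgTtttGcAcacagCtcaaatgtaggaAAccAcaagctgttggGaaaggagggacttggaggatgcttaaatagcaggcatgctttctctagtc

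Lyz2 is also a myeloid marker. Of the 7 myeloid markers listed, 6 had a probe and all 6 were well above background on all arrays, none at 0, with a summed level of 0.939 to 1.41 times the 75th percentile in Neo and 1.73 to 1.95 in MR 4-25. Lyz2 is part of this sum, so the sum is not separate from the rise of Lyz2. B cell markers summed to 1.20 to 1.37 in Neo and 0.853 to 1.68 in MR 4-25. Fibroblast and epithelial markers summed to 0.671 to 1.43 in Neo and 0.961 to 1.93 in MR 4-25. The myeloid sum was thus at a level like these, though the lines overlapped in these and not in the myeloid sum. Of the 6 myeloid markers, only Lyz2 passed the test. The others differed by 0.75 (Cd68), 0.69 (Mpo), 0.27 (Csf1r), 0.25 (Adgre1) and −0.43 (Itgam). Whether cells of that kind were present, and their part in the result, was not tested. In RNA from a whole culture, more cells of a type and more RNA per cell cannot be told apart.

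Of the 30 measured genes in the list of T cell and lymphocyte function, 3 rose (Prdm1, Lyz2 and Lyz1), 2 fell (Cd24a and Srgn) and 25 did not pass. Of those that rose, Prdm1 is the lymphocyte gene, and the lysozymes are known from other cells, as described above. The median difference was −0.06 and 17 were below 0. Over all genes the test called 1.88% higher and 1.55% lower, and counts this small are not read as a result about the list. The list was written from general knowledge with earlier results known. It does not hold every such gene: Dgka (−1.32, past the test) is not in it. Themis, needed for T cell selection in the thymus, stood at −1.20 ± 0.25 (SE; adjusted p = 0.0727, but 0.0446 with the sample number as a block and 0.0101 with slide as a block), and Myb, a transcription factor of immature blood cells, at −0.97 ± 0.21 (adjusted p = 0.0715), each with all MR 4-25 samples below all Neo samples. Fyn, a Src-family kinase of the T cell receptor, stood at −0.66 (adjusted p = 0.0751) and the integrin chain Itgb2 at −0.56 (adjusted p = 0.226). Prf1, the pore-forming protein of killer cells, stood at 0.65 (adjusted p = 0.305) and Stat6, which acts below the interleukin-4 receptor, at −0.27 (adjusted p = 0.311).

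Of the 38 measured genes of the cell cycle, apoptosis and stress, 1 fell (Timeless), none rose and 37 did not pass. Beside this, 1.88% of all genes were called higher and 1.55% lower. Their median was −0.35, below the −0.18 of all chromosome 10 genes, and 28 were below 0. The list was not matched for brightness, and the brightest tercile of chromosome 10 genes stood at −0.33, with 78.7% below 0. Cdk4, the kinase of cyclin D, was at 4.12 ± 0.03 in Neo and 3.54 ± 0.29 in MR 4-25 (SD, n = 3 each), a difference of −0.58 that did not pass (adjusted p = 0.156). Cdk1, the mitotic kinase, stood at −0.20 (adjusted p = 0.643). Mdm2, the ubiquitin ligase of p53, differed by 0.03, with a 95% interval of −0.52 to 0.58. Sgk1, a kinase known to respond to osmotic stress, stood at −0.37 (adjusted p = 0.439).

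Ddit3, which encodes the stress-induced factor CHOP, had the largest difference of that list. It was at 1.48 ± 0.14 in Neo and 2.66 ± 0.49 in MR 4-25 (SD, n = 3 each), a difference of 1.18 ± 0.27 (SE), above Neo in all samples but not past the test (adjusted p = 0.0835; 0.0825 with the sample number as a block, and 0.0356 with slide as a block, which passed). Ddit4, an inhibitor of mTOR signalling induced by stress, differed by 0.40, with an interval of −0.28 to 1.08.

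Of the 30 measured genes in the list of energy and one-carbon metabolism, 3 fell (Pdxk, Lta4h and Slc25a3), none rose and 27 did not pass. Lta4h makes leukotriene B4, so the list is wider than its name. For all genes the called shares were 1.88% higher and 1.55% lower. The median was −0.23 and 22 were below 0. Ndufa12, a subunit of complex I (−0.72, adjusted p = 0.0511; 0.0485 with slide as a block), Shmt2, the mitochondrial serine hydroxymethyltransferase (−0.61, adjusted p = 0.0596), and Mars1, the methionyl-tRNA synthetase (−0.72, adjusted p = 0.125), each had all MR 4-25 samples below all Neo samples and did not pass without a block. Hk1, hexokinase 1, was among the brighter genes at 5.44 ± 0.43 in Neo and 5.57 ± 0.37 in MR 4-25, and differed by 0.13 with an interval of −0.59 to 0.86.

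Of the 20 measured genes of cell volume, ion transport and adhesion, 2 rose (Enpp1 and Kcnmb4), 1 fell (Arhgap45) and 17 did not pass. The called shares of all genes were 1.88% higher and 1.55% lower. Slc26a10 (0.98) and the amino acid transporter Slc16a10 (−2.93), both past the test, are not in this list. Its counts therefore do not cover all transport genes of the chromosome. The median over the 6 arrays was 0.00, near that of all genes, and 10 were below 0. It was −0.03 on the first slide and −0.13 on the second, where all genes stood at −0.01 and 0.12. These 4 lists were described by their counts and were not tested as lists.

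The genes next to the largest called ones did not share their size. Around Prdm1, Atg5 stood at −0.43 and LOC672731 at 0.50. Around Enpp1, Ccn2 stood at 0.28 and Med23 at −0.49. Around Slc16a10, Mfsd4b5 stood at 0.55 and ENSMUST00000045307 at −0.76 (adjusted p = 0.0598, and 0.0390 with slide as a block), and around Akap12, Rmnd1 stood at −0.50 and Mthfd1l at −0.22. Around Olig3, Tnfaip3 (0.54) and Ifngr1 (0.09) did not pass either. Around Kif5a, Pip4k2c (0.02) and Dctn2 (−0.20) were near 0, and around Tle6, Tle2 (−0.45) and Sirt6 (−0.23) did not pass. Col18a1 (0.38) and Pofut2 (−0.05), next to AK132904, and 4930588G05Rik (−0.22) and Ccdc59 (−0.40), next to Mettl25, did not pass. Of called genes, 4 pairs were neighbours: LOC382448 with Pwp1, both lower; Ptprr with Kcnmb4 and Lyz2 with Lyz1, both higher; and Kcnmb4os2 with Cnot2, in opposite directions.

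Some genes had differences as large as these without passing the test. Glipr1 differed by 1.77 ± 0.37 (SE; adjusted p = 0.0691), from 0.74 ± 0.40 to 2.51 ± 0.62 (SD, n = 3 each). Zc3h12d, a regulator of RNA decay in blood cells, differed by 1.76 ± 0.59 (adjusted p = 0.18). ENSMUST00000095474 (1.72), NAP052665-1 (1.68) and Aim1 (1.47) were the other largest on that side. On the other side were AK031009 (−1.95 ± 0.41, adjusted p = 0.0722), 9930024M15Rik (−1.59), AK079828 (−1.46), Apon (−1.46) and AK031168 (−1.41). Of these 10 genes, Glipr1 (adjusted p = 0.0442), Zc3h12d (0.0394), Aim1 (0.0336) and AK031009 (0.0475) passed with the sample number as a block. With slide as a block, Glipr1 (0.0254), Zc3h12d (0.00912), Aim1 (0.0247), AK031009 (0.0133) and AK031168 (0.0446) passed.

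Where a gene had more than 1 probe, the others mostly agreed in direction. Among the 711 genes, 242 had 347 further probes, of which 257 had the same sign as the brightest; their median difference was −0.24. Of 17 further probes of called genes, 15 had the same sign, the exceptions being those of Slc25a3 and Utp20.

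Of the 577 genes of chromosome 10 that were not described above, 190 were well above background on no array, and 102 on all arrays but MR 4-25 3, the dimmest. Just inside the filter, the lowest array values were −5.95 for Olfr825, −5.79 for Moxd1 and −5.79 for Plk5. Just outside it, Epm2a (lowest value −4.66) and 9430013L17Rik (−4.66) were each missing on MR 4-25 3 alone.

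A few genes were well above background in a single line. Calhm5 was so on all MR 4-25 arrays and no Neo array, at −3.58, −3.42 and −4.16, which puts MR 4-25 at least 4.55-fold above Neo. In the other direction, A130096G17Rik was at least 3.84-fold lower in MR 4-25, AK042951 at least 2.76-fold, AK037075 at least 2.56-fold and AK041774 at least 2.21-fold. These genes were chosen by the line that showed them, so no test is given. Each bound sets the mean of the line with signal against the mean of the higher of the lowest signal well above background and the probe's own signal on each array of the other line. The Neo arrays were uneven for AK037075, at −5.08, −2.60 and −4.79, so its bound rests mostly on Neo 2. A130096G17Rik was brightest on Neo 3, at −2.67, against −4.06 and −4.00 on Neo 1 and Neo 2.

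The annotation's chromosome was checked by name against RefSeq: 603 of the 711 genes were placed on chromosome 10 there, 106 were not listed under their name, and 2, Zfp560 and Ndfip2, were placed on chromosomes 9 and 14.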

How the data were processed

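Single-colour Cy3 arrays of 3 Neo and 3 MR 4-25 samples were used. The authors deposited background-corrected intensity values from the scanner software, Agilent Feature Extraction (version 9.5 in the submitters' processing notes, 9.5.3.1 in the headers); probe positions are on mm7, per the file headers. Log2 values were set relative to the 75th percentile of each array's gene spots, outlier spots were masked, and the brightest probe per gene and chromosome was kept where all its spots were well above background on all 6 arrays. Genes were named by RefSeq accession, symbol or synonym, or else as in the file. The fit was limma (3.58.1, R 4.3.3, lmFit and eBayes) on 15332 genes, with Benjamini-Hochberg over all of them and a threshold of 0.05. It was run on simulated data whose noise was independent between arrays. Those data lack the shared deviations of same-numbered samples given below, so they do not check the calls under such sharing.

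The genes, lists and alternatives were chosen with earlier results of these data known. Named genes were those past the test (up to 20 each way), the 5 largest not past it each way, neighbours of the 5 largest called each way, 2 per list, called genes of the extreme bins, 12 fixed genes and genes detected in a single line. The exceptions were the further 11 genes that fell, genes of the Kcnmb4 stretch, and Themis, Ndufa12, Shmt2 and Mars1, chosen after their values were seen. Same-numbered samples deviated together from their line's mean, at correlations of 0.458, 0.265 and 0.604 over 15332 genes. The block on sample number is given for that reason. Crossed pairs on slide 1 correlated at 0.441 and 0.338, between the 0.265 and 0.458 of the same-numbered pairs there. Within that slide the sample numbers thus show no pairing of their own, and numbers and slides were not separated. The block on sample number is an alternative setting and not a known pairing.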

Additional observations from a re-analysis of the deposited data

How the results depend on the processing

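The median difference of the chromosome 10 genes stayed below that of all genes under every alternative: the gap was −0.22 as reported, −0.19 with quantile normalization, −0.18 with a filter of at least 3 arrays, −0.17 with normexp and quantile, with the mean over probes and with array quality weights, −0.15 on slide 1 alone and −0.14 without a filter; leaving out single samples gave −0.22 to −0.18. The median itself was −0.13 with normexp and quantile and −0.033 with no filter, and −0.25 to −0.15 without single samples. The counts moved far more. Genes that rose numbered 4 with normexp, 8 with the filter of at least 3 arrays, 3 with no filter, 34 with array weights, 28 with the slide block, 9 with the replicate block, and 1 to 11 without single samples. The share that rose was 0.563% against 0.639% of all genes with normexp, 0.802% against 0.701% with the looser filter and 0.233% against 0.338% with no filter. It was 4.78% against 5.88% with array weights, 3.94% against 3.19% with the slide block and 1.27% against 1.10% with the replicate block. Genes that fell numbered 3 with normexp, 10 with median scaling, 55 with normexp and quantile, 7 with the looser filter, 5 with no filter, 52 with every probe on its own, 59 with a trend and robust fit, 115 with array weights, 56 with the slide block, 7 with the replicate block, 20 on slide 1 alone, and 1 to 18 without single samples. Set against all genes under the same setting, the share that fell was 7.74% against 2.38% with normexp and quantile, 4.91% against 1.57% with every probe, 8.30% against 2.81% with the trend and robust fit, 16.2% against 6.29% with array weights, 7.88% against 2.60% with the slide block and 2.81% against 1.25% on slide 1 alone. It was near all genes with normexp (0.422% against 0.352%), with the looser filter (0.702% of 997 against 0.575% of 21399), with no filter (0.388% of 1288 against 0.320% of 27776) and with the replicate block (0.985% against 0.75%). Of the 45 called genes, the slide block kept all 45, slide 1 alone kept 24 and the replicate block 8. Windows of 15 genes, added after the data were seen, lay below the all-gene median in 82.5%, and bins of 5 Mb in 95.7%. Neither was counted on other chromosomes. The number of arrays, 3 per line, limits the precision of each difference.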
